A study of Mus musculus with 18 samples.

Results

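The genes described here encode the subunits of the mitochondrial respiratory chain and ATP synthase, together with complex I assembly factors of the Nduf family. Atp5s, which is not a subunit, also matched by symbol, and is in the totals but in no count by complex. They were chosen by symbol alone, as protein-coding genes whose names begin with Nduf, Uqcr, Cox4 to Cox8 or Atp5, the genes Sdha to Sdhd, and the mitochondrial mt-Nd, mt-Cytb, mt-Co and mt-Atp genes. This gave 107 genes, 94 of them in the nuclear genome and 13 in the mitochondrial genome. They are part of 33440 quantified entries, which include 883 transcripts that matched no gene. Their mRNA levels were compared in a gain-of-function and a loss-of-function model of IRF3, a transcription factor of the interferon response, in mouse adipocytes. In the first model, stromal-vascular fraction (SVF) cells of inguinal fat from IRF3-2D mice aged 4 to 6 weeks were differentiated into adipocytes, transduced on day 6 and harvested on day 8. The 3 WT libraries come from cells given AAV-GFP, and the 3 FI3OE libraries from cells given AAV-GFP-Cre. Both SVF groups carry the IRF3-2D allele, a constitutively active form of IRF3 that is silent until Cre acts, so that the groups differ both in Cre and in the active IRF3. In the second, RNA was isolated by translating ribosome affinity purification (TRAP) from the epididymal fat (eWAT) of Ad-NuTRAP mice (WT, 6 libraries) and FI3KO-Ad-NuTRAP mice (FI3KO, 6 libraries) on the C57BL/6 background, after 8 weeks of high-fat diet (HFD) at thermoneutrality. The diet began at 8 weeks of age. All TRAP mice carry a tagged ribosomal protein that Cre under the Adipoq promoter switches on in adipocytes, brown ones included, and in FI3KO mice the same Cre deletes floxed Irf3.

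The respiratory chain passes electrons from NADH through complex I, or from succinate through complex II, to coenzyme Q, then through complex III and cytochrome c to complex IV, which reduces oxygen. Complexes I, III and IV pump protons across the inner membrane, and complex V, the ATP synthase, uses the gradient to make ATP. Complexes I, III, IV and V are built from products of both genomes, whereas complex II is nuclear only. Nuclear-encoded subunits are translated on cytosolic ribosomes and imported, and mitochondrial mRNAs are transcribed from the mitochondrial DNA and translated on ribosomes inside the organelle. White adipocytes hold fewer mitochondria than brown adipocytes but use them in lipid synthesis and in the browning response.

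The mitochondrial genes lie on a compact genome, and neighbouring reading frames share bases. These stretches are shown because their bases belong to both genes of a pair, also where the genes are on opposite strands, since these libraries were unstranded. In the words of 31 bases used for read assignment, mt-Atp8 and mt-Atp6 share 13, and the other 2 pairs share 0. In GRCm38, mt-Atp8 and mt-Atp6 share 43 bases on the same strand at chrM:7927-7969, mt-Nd4l and mt-Nd4 share 7 bases at chrM:10167-10173, and mt-Nd5 shares 14 bases at chrM:13552-13565 with mt-Nd6, which is read from the other strand. Capitals mark the shared bases in the sequences, which come from GENCODE M21 transcripts and are written along the plus strand (chrM:7897-7969, chrM:10137-10173 and chrM:13522-13565).
mt-Atp8 into mt-Atp6: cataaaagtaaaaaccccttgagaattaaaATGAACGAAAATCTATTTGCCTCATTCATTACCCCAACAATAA
mt-Nd4l into mt-Nd4: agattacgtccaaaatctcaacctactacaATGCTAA
mt-Nd5 into mt-Nd6: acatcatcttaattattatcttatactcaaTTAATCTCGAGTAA
For the nuclear genes, the 250 bases before the RefSeq start site (GRCm38.p6) are shown for 3 genes that hold a recognition sequence of the mitochondrial gene regulators NRF1 or GABPA and for 2 genes of restricted expression that hold none of the searched motifs. Capitals mark GCGCATGCG for NRF1 and CCGGAAG for GABPA, read on either strand. Uqcrh, the hinge subunit of complex III, lies on the minus strand (chr4:116075071-116075320). Ndufaf8, a complex I assembly factor, lies on the plus strand (chr11:120098684-120098933). Cox6a1, the ubiquitous COX6A of complex IV, lies on the minus strand (chr5:115348959-115349208), and its run of capitals holds the NRF1 motif on both strands in overlapping copies. Cox7a1 (chr7:30183921-30184170, plus strand) and Cox8b (chr7:140900447-140900696, minus strand) are the forms of COX7A and COX8 found mainly in heart, skeletal muscle and brown fat.
Uqcrh: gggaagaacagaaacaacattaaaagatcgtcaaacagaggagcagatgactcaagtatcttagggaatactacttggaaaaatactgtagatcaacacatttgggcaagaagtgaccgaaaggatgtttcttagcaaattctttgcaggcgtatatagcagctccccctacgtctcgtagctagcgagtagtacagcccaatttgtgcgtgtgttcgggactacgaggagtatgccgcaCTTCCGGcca
Ndufaf8: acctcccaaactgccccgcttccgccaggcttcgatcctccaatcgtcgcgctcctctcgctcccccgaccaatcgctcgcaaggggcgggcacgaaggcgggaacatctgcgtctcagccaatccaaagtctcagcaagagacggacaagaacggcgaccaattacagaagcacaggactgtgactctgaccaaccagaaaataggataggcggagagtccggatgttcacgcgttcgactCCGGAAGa
Cox6a1: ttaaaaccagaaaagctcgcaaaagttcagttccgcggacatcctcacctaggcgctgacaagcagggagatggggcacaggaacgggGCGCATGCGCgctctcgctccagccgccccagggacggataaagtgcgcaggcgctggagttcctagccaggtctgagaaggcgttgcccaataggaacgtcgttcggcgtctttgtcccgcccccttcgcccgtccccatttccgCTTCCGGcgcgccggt
Cox7a1: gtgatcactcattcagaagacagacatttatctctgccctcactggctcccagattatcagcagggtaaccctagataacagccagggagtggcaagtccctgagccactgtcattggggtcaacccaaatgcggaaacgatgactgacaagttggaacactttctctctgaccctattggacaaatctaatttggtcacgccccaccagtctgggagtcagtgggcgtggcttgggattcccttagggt
Cox8b: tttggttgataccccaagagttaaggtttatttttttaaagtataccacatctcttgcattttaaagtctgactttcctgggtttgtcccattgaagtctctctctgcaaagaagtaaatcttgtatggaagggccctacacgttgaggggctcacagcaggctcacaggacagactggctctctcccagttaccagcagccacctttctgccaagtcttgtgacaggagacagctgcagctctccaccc

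The SVF libraries held 21541334 to 36932452 estimated reads in transcripts and the TRAP libraries 25259869 to 40490283. An Irf3 transcript (ENSMUST00000107834.1) had 0 reads in every FI3KO TRAP library against 164 to 388 in WT, and the log2 difference of Irf3 as a gene was -0.35. In SVF adipocytes Irf3 was 0.73 higher in FI3OE. Adipocyte markers were high in all libraries, whereas the SVF cultures also held macrophage mRNA, with Lyz2 at a mean TPM (transcript level per length and depth) of 1148 in FI3OE and 1112 in WT. In TRAP, FI3KO replicates 1 and 2 stood apart from replicates 3 to 6. The main TRAP counts are therefore given for all libraries, with these 2 left out, and with replicates 3 to 6 of both groups. Nothing in the labels ties a replicate number of FI3KO to the same number of WT. WT TRAP replicates 1 and 2 lay closer to each other than any other pair of libraries, and were kept as separate samples. Nothing in the labels says whether the SVF libraries came from separate mice or cultures, so p-values there measure the spread between these libraries.

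The 13 mitochondrial mRNAs were all lower in FI3OE than in WT SVF adipocytes, and the median difference was -0.95 on the log2 scale (-48.3%). In a quasi-likelihood test (edgeR) fitted over all genes, 13 of 13 passed an adjusted p of at most 0.05, and the groups did not overlap for any of the 13. Over all 16105 genes tested, 16.8% were called lower and 20.2% higher, 23.8% had all FI3OE libraries below all WT libraries, and the median difference was -0.0047. The 13 genes took 1.08%, 1.01% and 1.16% of the reads in the FI3OE libraries against 2.15%, 2.12% and 2.31% in WT. All FI3OE libraries thus lay below all WT libraries. The 94 nuclear genes took 0.782%, 0.806% and 0.792% in FI3OE and 0.855%, 0.803% and 0.831% in WT, which overlap.

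**Figure D1:**
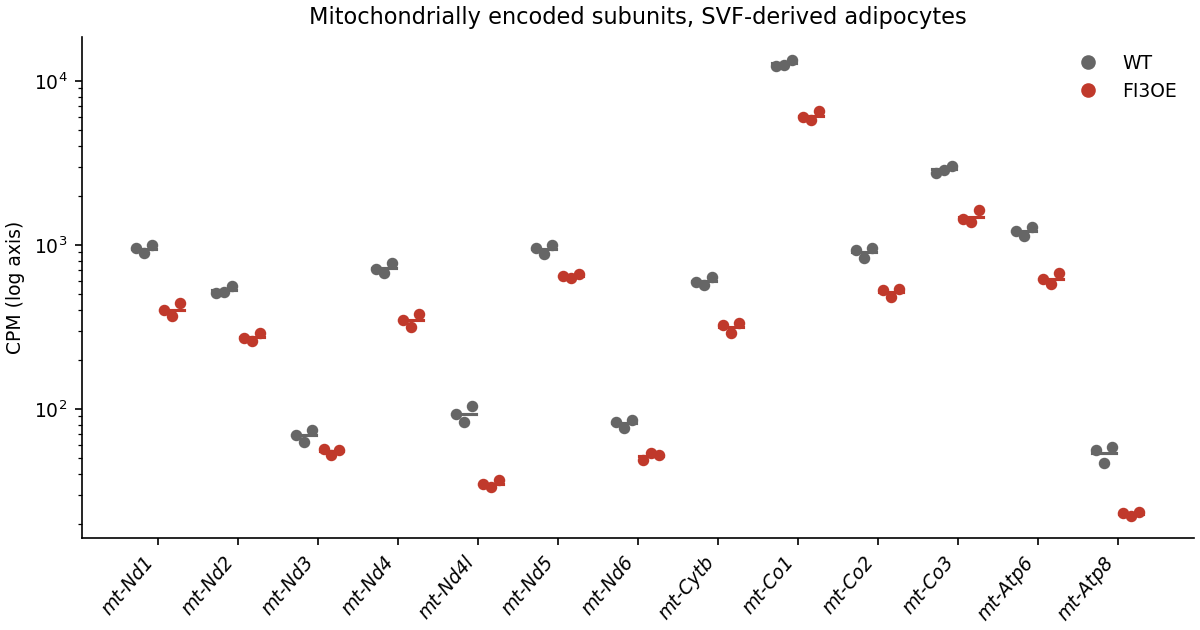
CPM (log axis) of the 13 mitochondrial protein genes in each SVF library, with FI3OE and WT as separate points and lines at the group means. All 13 genes have the 3 FI3OE libraries below the 3 WT libraries, with the narrowest gap at mt-Nd3.

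Of these genes, 7 encode the membrane-arm core of complex I. For mt-Nd1, which sits at the junction with the coenzyme Q site, the FI3OE libraries held 399, 371 and 440 CPM (reads scaled to a common library size) and the WT libraries 953, 887 and 1003. The 2 groups were far apart, with a log2 difference of -1.23 (SE 0.0617, adjusted p 4.63e-08). The pump subunit mt-Nd2 was at 270, 260 and 289 CPM against 507, 513 and 563 (log2 difference -0.95, SE 0.0509, adjusted p 7.65e-08). The pump subunit mt-Nd4 was at 347, 318 and 377 CPM against 708, 676 and 775 (-1.05), and mt-Nd4l, whose frame runs into mt-Nd4, was at 34.7, 33.4 and 36.9 CPM against 93.4, 82.7 and 104 (-1.41, SE 0.0747, adjusted p 7.05e-08). This was the largest difference among the mitochondrial genes. The others of complex I differed less. The remaining pump subunit, mt-Nd5, was at 646, 632 and 667 CPM against 960, 879 and 1003 (-0.55), and mt-Nd6 at 48.9, 53.8 and 52.2 CPM against 82.9, 76.8 and 85.9 (-0.67). mt-Nd6 is the only protein gene on the other strand of the genome, and its reads cannot be told from antisense RNA of that region in unstranded libraries. The smallest difference was that of mt-Nd3, at 56.8, 52.3 and 56.1 CPM against 69.8, 63.1 and 74.3 (-0.33, SE 0.0586, adjusted p 0.00103).

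The single mitochondrial gene of complex III, mt-Cytb, which carries the haems of the coenzyme Q cycle, was at 324, 289 and 336 CPM in FI3OE and 598, 570 and 636 CPM in WT (-0.93). In complex IV, mt-Co1 (chrM:5328-6872), the catalytic subunit and the most abundant of the 107 mRNAs in these cultures, was at 6045, 5792 and 6591 CPM in FI3OE against 12297, 12508 and 13491 in WT. The group means were 6142 ± 408 and 12765 ± 638 CPM (SD, n = 3), a log2 difference of -1.06 (SE 0.0473, adjusted p 1.95e-08 by the edgeR quasi-likelihood test). The copper-binding subunit mt-Co2 was at 534, 482 and 542 CPM against 925, 828.8 and 962 (-0.80), and mt-Co3 at 1444, 1383 and 1643 CPM against 2764, 2853 and 3033 (-0.95). Both mitochondrial genes of the ATP synthase belong to its proton channel. mt-Atp6 was at 621, 579 and 671 CPM against 1220, 1131 and 1280 (-0.96), and mt-Atp8 at 23.2, 22.4 and 23.5 CPM against 56.4, 46.8 and 58.8 (-1.23).
Of the 13, 5 also passed an absolute log2 difference of at least 1 (mt-Nd4l, mt-Atp8, mt-Nd1, mt-Co1 and mt-Nd4), where 1.63% of all genes tested did so in this direction. With the fold cutoff the count was 4 without FI3OE replicate 2 or WT replicate 3 and 7 without FI3OE replicate 3. At the adjusted p alone, all 13 calls held with each library left out in turn. With all 18 libraries of both experiments in a joint fit, 10 of the 13 were called, and mt-Nd3 (adjusted p 0.527), mt-Nd5 (0.337) and mt-Nd6 (0.322) were not.

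Set per length and averaged per gene, the mitochondrial mRNAs of each mixed complex lay above the nuclear ones in both SVF groups. In each library the mean TPM over the mitochondrial genes was divided by the mean TPM over the nuclear subunit genes. The group mean of this ratio was 2.25 in FI3OE and 4.27 in WT for complex I and 1.36 and 2.43 for complex III. It was 11.7 and 22.3 for complex IV, and 2.90 and 6.03 for complex V. In TPM, mt-Co1 had a mean of 5410 in FI3OE and 11710 in WT, and the median nuclear member 174 and 187. The ratio was therefore lower in FI3OE in all 4 complexes that draw on both genomes. RNA of nucleus-retained non-coding genes, a sign of nuclear RNA in a library, summed to 13937 to 15207 CPM in FI3OE and 14879 to 16461 in WT, with 1 of 7 genes called in each direction. Summed adipocyte marker mRNA was 14943 to 15326 CPM in FI3OE and 17017 to 17047 in WT, with 10 of 18 markers called lower (55.6%, against 16.8% of all genes) and 4 higher (22.2%, against 20.2%). Summed macrophage marker mRNA was 2458 to 2516 and 2502 to 2682 CPM. The part of these shifts in the mitochondrial result was not tested, and in bulk RNA fewer cells of a type and less RNA per cell cannot be told apart.

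**Figure D2:**
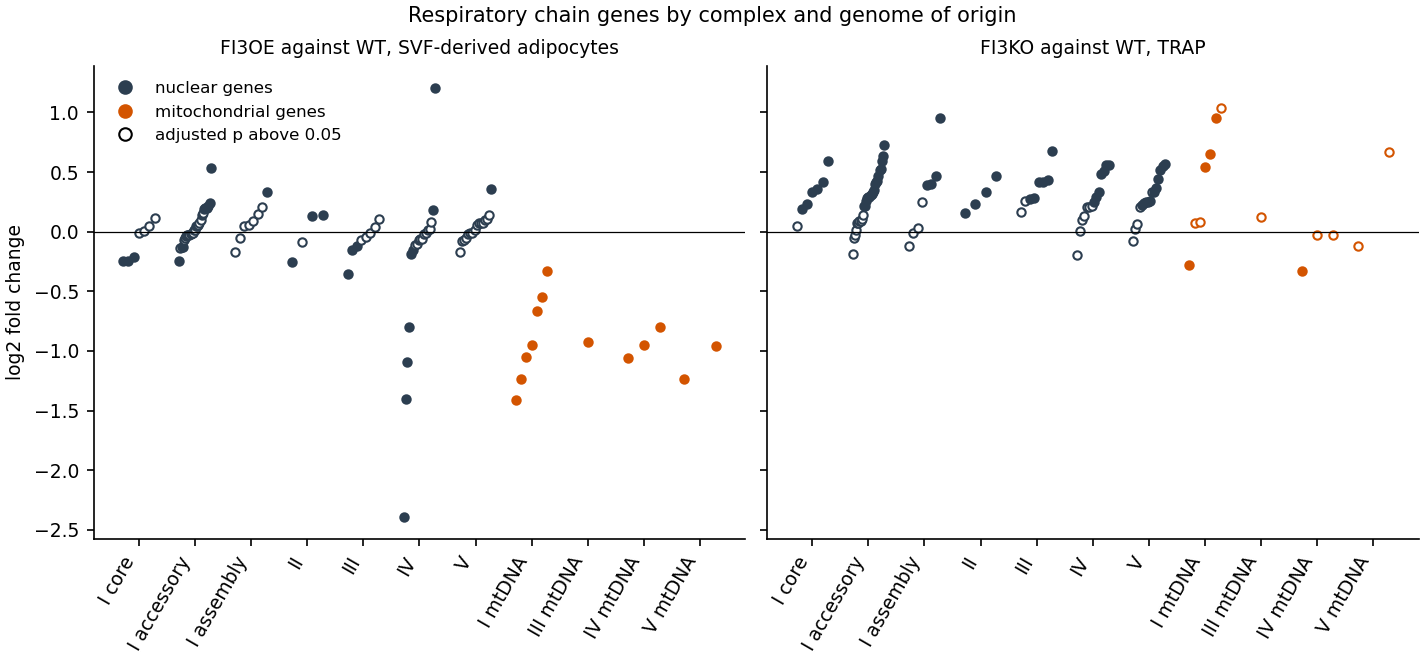
Log2 difference of each tested gene by complex and genome of origin, for FI3OE against WT SVF adipocytes (left) and FI3KO against WT TRAP (right). Filled points passed an adjusted p of 0.05, open points did not, and orange marks mitochondrial genes. The mitochondrial genes lie between -1.41 and -0.33 in the SVF panel, and the nuclear genes centre on -0.01 there and on 0.28 in TRAP.

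The nuclear genes moved in both directions in FI3OE. Of 94, 91 could be tested (Cox7b2, Cox8c and a second Atp5o gene model were too low), 14 of the 91 were called higher (15.4%) and 15 lower (16.5%), both shares below the 20.2% and 16.8% of all genes, and the median was -0.01. With the trend of each library on GC content and length removed, 9 were called higher (9.9%, against 19.2% of all genes) and 27 lower (29.7%, against 3159 of 15806 genes). The nuclear median was then -0.04, against -0.03 over all genes. DESeq2 called 10 higher, where 17.6% of all genes were, and 15 lower (16.5%, against 14.8% of all genes). The count called higher was 8 without FI3OE replicate 2 (8.8%, against 17.2% of all genes) and 9 without WT replicate 2 (9.9%, against 17.4%). In a fit of all 18 libraries 4 were called higher (4.4%, against 5.5% of all genes) and 3 lower (3.3%, against 3.6%). Past both cutoffs there were 1 higher and 3 lower, where 1.99% and 1.63% of all genes passed.

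The counts by complex stand against 20.2% of all genes called higher and 16.8% called lower. Among the 7 nuclear core subunits of complex I, 3 were called lower (42.9%). They included Ndufs1 and Ndufv1, the iron-sulphur and flavin subunits through which electrons enter from NADH. Ndufs1 (chr1:63143596-63176833) was at 149, 150 and 162 CPM in FI3OE against 188, 179 and 180 in WT (-0.25, adjusted p 0.000887). Ndufv1 was at 110, 112 and 106 CPM against 131, 124 and 125 (-0.21, adjusted p 0.00133). Groups did not overlap for either gene, but neither call held in the fit of all 18 libraries. Of 29 accessory subunits, 8 were called higher (27.6%) and 2 lower (6.9%). Those higher were Ndufa8, Ndufa11, Ndufa13, Ndufb3, Ndufb6, Ndufc2, Ndufs4 and Ndufs5, and those lower were Ndufa10 and Ndufc1. Ndufb3 (chr1:58586384-58595964), an accessory subunit of the membrane arm, was at 30.5, 32.0 and 29.98 CPM in FI3OE against 22.9, 20.2 and 20.8 in WT, a log2 difference of 0.53 (adjusted p 3.19e-05). Ndufc2, also of the membrane arm, was 0.22 higher (adjusted p 0.00633) and Ndufa8, in the intermembrane space, 0.24 higher (adjusted p 0.00179). The call of Ndufc2 was lost in 2 of 16 alternatives, among them the fit of all 18 libraries. Of 8 assembly factors, Ndufaf3 alone was called (0.33, adjusted p 0.00958). It lost the call in 1 of 16 alternatives (adjusted p 0.0718).

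The 4 subunits of complex II split. Sdha (chr13:74322254-74350280), the flavoprotein that oxidizes succinate, was at 383, 386 and 384 CPM in FI3OE and 469, 446 and 462 CPM in WT (-0.26, adjusted p 0.00013). The membrane anchors Sdhc (0.14, adjusted p 0.00821) and Sdhd (0.13, adjusted p 0.0139) were called higher, and the iron-sulphur subunit Sdhb had a difference of -0.09 that was not called. In complex III, 3 of 8 were called lower (37.5%, against 16.8% of all genes), namely Uqcr11, Uqcrc1 and Uqcrq. Uqcr11, a small membrane subunit, was at 19.6, 21.4 and 20.3 CPM against 25.6, 24.8 and 27.9 (-0.35, adjusted p 0.00093), and the core protein Uqcrc1 differed by -0.15 (adjusted p 0.006). The Rieske iron-sulphur protein Uqcrfs1 had a difference of 0.04 that was not called. The calls of Sdha, Uqcr11 and Uqcrc1 were lost in the fit of all 18 libraries (adjusted p 0.187, 0.259 and 0.38). So were those of Sdhc, Sdhd and Uqcrq. In the ATP synthase, 15 of 16 tested genes were not called, among them the catalytic Atp5b (-0.08) and its partner Atp5a1 (-0.07). The exception was Atp5g3 (chr2:73908447-73911326), which encodes the rotor ring subunit c, as Atp5g1 and Atp5g2 do. Atp5g3 was at 170, 177 and 175 CPM in FI3OE and 137, 136 and 133 CPM in WT (0.36, adjusted p 1.23e-05), whereas Atp5g1 had a difference of 0.07 (adjusted p 0.445).

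The largest nuclear changes in FI3OE were in complex IV, in subunits that have a ubiquitous and a restricted form. Of the restricted forms, 4 were called lower. Cox7a1 was at 8.62, 9.95 and 8.70 CPM in FI3OE against 16.3, 14.8 and 16.3 in WT, from at least 204 reads a library. The groups were apart, with a log2 difference of -0.80 (SE 0.0863, adjusted p 2.35e-05). Cox8b was at 0.761, 1.16 and 1.20 CPM against 2.85, 2.22 and 3.27 (-1.40, SE 0.234, adjusted p 0.000659), from 18 to 44 and 48 to 83 reads. Cox6a2 (chr7:128205435-128206387), the muscle form of COX6A, was at 0.0845, 0.337 and 0.327 CPM against 1.16, 1.34 and 1.65 (-2.39, SE 0.388, adjusted p 0.000522). With 2 to 12 reads in FI3OE and 28 to 42 in WT, its size is loosely fixed. Cox4i2 (chr2:152754173-152765037), the oxygen-regulated form of COX4, was at 0.972, 1.27 and 1.06 CPM against 2.56, 2.45 and 2.05 (-1.09, SE 0.209, adjusted p 0.00172). All 4 kept FI3OE below WT in every library, and the call of Cox4i2 was lost in the fit of all 18 libraries (adjusted p 0.275).

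Their ubiquitous partners had small differences, -0.01 for Cox6a1, 0.08 for Cox7a2 and -0.02 for Cox8a, none called, and -0.16 for Cox4i1 (adjusted p 0.025), whose call was lost without FI3OE replicate 1 or 3 or WT replicate 1 or 3. In pair TPM, Cox7a1 made up 17.3%, 18.5% and 17.2% of the Cox7a1 and Cox7a2 mRNA in FI3OE and 29.4%, 28.6% and 27.9% in WT. For the other 3 pairs the restricted form was a minor part in both groups, with mean shares of 1.20% and 2.98% for Cox8b, 0.726% and 1.39% for Cox4i2, and 0.207% and 1.20% for Cox6a2. These pairs share no sequence word of the length used for read assignment, so the split between partners does not rest on shared reads. The testis form Cox6b2 went the other way, at 0.676, 0.636 and 0.818 CPM against 0.372, 0.185 and 0.354 (1.21, adjusted p 0.0222). Its call was lost with DESeq2, in the fit of all 18 libraries (adjusted p 0.305), and without FI3OE replicate 3 or WT replicate 2. Ndufa4, a complex IV subunit despite its name, was 0.18 higher (adjusted p 0.0216) and lost its call without FI3OE replicate 1 or 2 or WT replicate 1 or 2, and its hypoxia-induced relative Ndufa4l2 overlapped, at 22.6, 39.7 and 32.4 CPM against 34.7, 27.8 and 31.4. Cox7b was called lower (-0.19, adjusted p 0.0442) and lost the call with any library but WT replicate 2 left out.
Since Cox7a1, Cox8b and Cox6a2 also mark brown fat and muscle, markers of those cells were measured. Ucp1 had at most 2 reads in any SVF library. The 10 brown and beige markers summed to 38.7 to 42.4 CPM in FI3OE and 47.9 to 51.4 in WT, with 4 of 6 tested called lower (66.7%, against 16.8% of all genes), and muscle markers to 8.78 to 11.5 and 10.9 to 11.7 CPM. The part of brown or beige cells in the fall of the restricted forms was not tested.

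**Figure D3:**
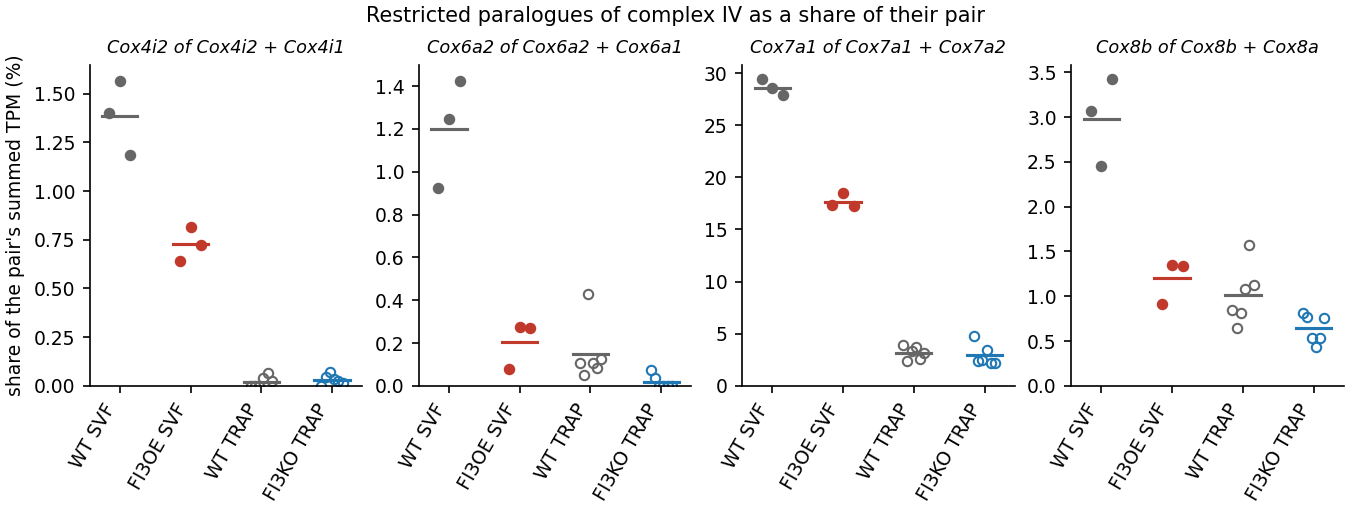
Share of the restricted form in the summed TPM of each pair (Cox4i2 with Cox4i1, Cox6a2 with Cox6a1, Cox7a1 with Cox7a2, Cox8b with Cox8a), in percent, for every library of the 4 groups. Open points are TRAP libraries. In SVF adipocytes every share is lower in FI3OE than in WT, and in TRAP all shares are small.

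Other genes of mitochondrial function were taken from 4 lists, whose counts stand against the 20.2% of all genes called higher and 16.8% called lower. Of 45 further respiratory chain assembly and carrier genes tested, 10 were called higher (22.2%) and 4 lower (8.9%) in FI3OE. Chchd10, of the cristae junctions, had a log2 difference of -1.68 (adjusted p 1.08e-09). Atpaf2, an ATP synthase assembly factor, had -1.34 (adjusted p 0.0476), but its WT libraries ranged from 6.77 to 48.3 CPM and overlapped FI3OE. Among those called higher, the hypoxia-induced Higd1a, named after its value was seen, had 1.02 (adjusted p 4.38e-05), with groups apart. Of 29 genes for mitochondrial DNA upkeep, transcription and RNA processing, 13 were called lower (44.8%) and 4 higher (13.8%). The lower ones included Fastkd1, of mitochondrial RNA handling (-0.72), and the nuclease Mgme1 (-0.46). Tfam, the packaging and transcription factor of mitochondrial DNA, named here after its value was seen, was called higher (0.24, adjusted p 0.00711). Of 12 regulators of mitochondrial biogenesis, 8 were called lower (66.7%), with Ppara at -1.12 and the coactivator Ppargc1b at -0.88. Of 13 citric acid cycle genes, 6 were called lower (46.2%), with subunits of the NAD-dependent isocitrate dehydrogenase Idh3b at -0.41 and Idh3g at -0.31, and the other 7 were not called.

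In TRAP of eWAT adipocytes, nuclear respiratory chain mRNAs were higher in FI3KO than in WT. Of 94 nuclear genes, 87 were tested (the low ones were those of the SVF set with Cox4i2, Cox6a2, Cox6b2 and Ndufa4l2), and 56 were called higher (64.4%), against 19.1% of the 13624 genes tested. None was called lower by edgeR, 0 at an unadjusted p under 0.05 and 0 with DESeq2, where 18.3% of all genes were called lower. The median was 0.28 on the log2 scale (21.8%), against 0.0163 over all genes, and 79 of 87 differences were above 0. The rises were modest, and no member passed both cutoffs, which 1.74% of all genes did upwards and 4.87% downwards. For 30 of 87 all FI3KO libraries lay above all WT libraries, compared with 7.47% of all genes.
The nuclear genes took 0.828%, 0.759%, 0.864%, 0.931%, 0.809% and 0.857% of the reads in FI3KO replicates 1 to 6 and 0.760%, 0.759%, 0.703%, 0.664%, 0.690% and 0.674% in WT, so that the WT replicates 1 and 2 met FI3KO replicate 2. With FI3KO replicates 1 and 2 left out and all WT libraries kept, 56 members were called higher (64.4%, against 19.8% of all genes), the median was 0.29, and 41 of 87 had no overlap, against 14.8% of all genes. With replicates 3 to 6 of both groups, 65 members were called higher (74.7%, against 25.7% of all genes) with a median of 0.39, and 57 had no overlap, against 23.7% of all genes. With replicates 1 and 2 alone, where 1.6% of all genes were called higher, none was called, 19 were higher and 4 lower at an unadjusted p under 0.05, and the median was 0.16. With this split as a term, 57 were called, and 53 without FI3KO replicate 1.

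**Figure D4:**
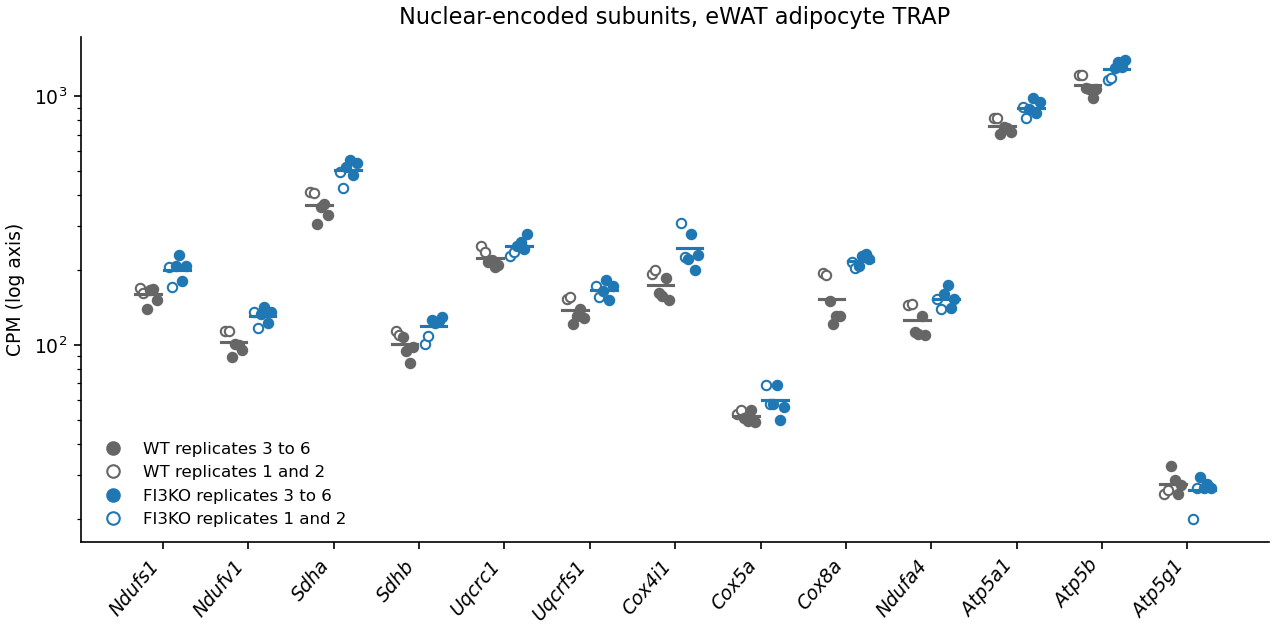
CPM (log axis) of 13 nuclear-encoded subunits in each TRAP library, with lines at the group means and open points for replicates 1 and 2. For most subunits the FI3KO mean lies above the WT mean, and the open points of the groups lie closer together than the filled ones. The points of the groups overlap for some, among them Sdhb, Uqcrc1, Uqcrfs1, Cox5a and Atp5b.

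By complex, the share called higher in FI3KO, against 19.1% of all genes, was 6 of 7 for the core subunits of complex I, 18 of 29 for its accessory subunits and 4 of 8 for its assembly factors. It was 4 of 4 for complex II, 6 of 8 for complex III, 7 of 14 for complex IV and 11 of 16 for complex V. The medians were close, at 0.33, 0.29, 0.32, 0.28, 0.35, 0.23 and 0.26. With FI3KO replicates 1 and 2 left out, where 19.8% of all genes were called higher, the counts in the same order were 6, 16, 4, 4, 7, 7 and 12. With replicates 3 to 6 of both groups, where 25.7% were, they were 7, 20, 4, 4, 8, 10 and 12. The medians of all complexes were above 0, and no test of a difference between them was made.

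In complex I, the core subunit Ndufs7, which holds the last iron-sulphur centre before coenzyme Q, ranged from 79.5 to 104 CPM in FI3KO (median 92.7) and from 54.6 to 68.4 CPM in WT (median 59.1). The groups did not overlap (0.59, SE 0.0798, adjusted p 0.000261). Ndufs1 and Ndufv1, which were lower in FI3OE, were higher here without overlap. Ndufs1 ranged from 171 to 231 CPM (median 206) against 140 to 169 (median 164; 0.33, adjusted p 0.00517), and Ndufv1 from 117 to 142 (median 134) against 89.8 to 114 (median 101; 0.36, adjusted p 0.00206). The largest nuclear difference was that of the assembly factor Ndufaf8, at 6.67 to 14.1 CPM (median 8.31) against 3.26 to 6.43 (median 4.41; 0.95, adjusted p 0.00397). Accessory subunits followed. Ndufa5 ranged from 8.496 to 13.6 CPM (median 9.38) against 5.27 to 7.09 (median 6.49; 0.73, adjusted p 0.00127), Ndufa2 from 41.3 to 74.7 (median 45.3) against 27.6 to 40.6 (median 32.7; 0.64, adjusted p 0.0068), and Ndufb11 from 59.1 to 91.8 (median 64.7) against 39.5 to 52.0 (median 46.1; 0.60, adjusted p 0.00226). Groups did not overlap for these 4 genes.

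In complex II, Sdha ranged from 426 to 555 CPM (median 509) in FI3KO and from 306 to 413 (median 363) in WT, a log2 difference of 0.46 (adjusted p 0.00146). Replicates 3 to 6 alone gave 0.62, and replicates 1 and 2 gave 0.17. Sdhd (0.33) and Sdhc (0.16) were also called, and Sdhb (0.23, adjusted p 0.039) lost its call without any of replicates 3 to 6 of either group and was at -0.08 in replicates 1 and 2. In complex III, the hinge protein Uqcrh, whose upstream sequence is shown above, ranged from 58.2 to 132 CPM (median 69.8) against 41.1 to 62.5 (median 49.8; 0.67, adjusted p 0.0149), with overlap. Uqcrfs1 was 0.27 higher (adjusted p 0.0107), and the core protein Uqcrc1, at 0.16, was not called (adjusted p 0.0655).
In complex IV, Cox8a (chr19:7215153-7217616), the ubiquitous COX8, ranged from 203 to 231 CPM (median 219) against 121 to 195 (median 140.0; 0.51, adjusted p 0.00447), and Cox4i1 from 201 to 309 (median 228) against 151 to 200.2 (median 174; 0.48, adjusted p 0.0046), both without overlap. Cox6b1 (0.34), Ndufa4 (0.29) and Cox6a1 (0.25) were called too, although Ndufa4 was called no longer without FI3KO replicate 4 or WT replicate 3, 4 or 6, and Cox6a1 without FI3KO replicate 1 or WT replicate 4 or 6. Cox5a (0.21, adjusted p 0.0501), Cox5b (0.21), Cox7a2l (0.21), Cox7a2 (0.14) and Cox7b (0.09) were not called. In the ATP synthase, Atp5a1 ranged from 819 to 981 CPM (median 895) against 703 to 818 (median 748; 0.24, adjusted p 0.00909). Its catalytic partner Atp5b ranged from 1165 to 1402 (median 1303) against 981 to 1220 (median 1073; 0.22, adjusted p 0.028). Replicates 3 to 6 alone gave 0.36 for Atp5b, replicates 1 and 2 gave -0.04, and the call was lost without any of replicates 3 to 6 of either group. The ring subunit genes Atp5g1 (-0.08) and Atp5g3 (0.06) and the accessory subunit Ndufb3 (0.09), of which Atp5g3 and Ndufb3 were higher in FI3OE, were not called.

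The restricted forms were low in TRAP. Mean TPM in FI3KO and WT was 0.341 and 0.170 for Cox4i2, 0.0905 and 0.743 for Cox6a2, 0.436 and 0.225 for Ndufa4l2 and 1.63 and 0.532 for Cox6b2. Cox7a1 was at 11.8 and 12.5 TPM, against 73.3 in FI3OE and 136 in WT SVF adipocytes, and made up 2.91% and 3.17% of its pair. Neither Cox7a1 (0.01) nor Cox8b (-0.20) was called, and Cox4i2 and Cox6a2 were too low to be tested. Where low genes were tested too, Cox6a2, at 0 to 2 reads a library in FI3KO and 2 to 14 in WT, was called lower, at -2.76 without a filter on low counts (adjusted p 0.04) and -2.81 in the fit of all 18 libraries (adjusted p 0.0112), and its groups overlapped. Cox4i2, with FI3KO above WT, was not called in either (adjusted p 0.432 and 0.262). Cox6b2 went the other way from Cox6a2. It was called higher in the fit of all 18 libraries (1.72, adjusted p 0.0267), but not without a filter (adjusted p 0.1), and its groups overlapped. The sets of libraries differ in depot, in culture and in TRAP, so these levels are set side by side without a test.

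The mitochondrial mRNAs took a small share of the reads in TRAP, which recovers cytosolic ribosomes. They took 0.0180% to 0.0249% of reads in FI3KO and 0.0190% to 0.0237% in WT, and the WT mean was 108 times below that of WT SVF adipocytes. Each library held 4924 to 7467 such reads, of which mt-Co1 had at least 1671 and mt-Atp8 at most 28.7. In the test, 3 genes were called higher (23.1%, against 19.1% of all genes) and 2 lower (15.4%, against 18.3%), with overlapping groups for all 5. mt-Nd5 ranged from 24.04 to 76.8 CPM (median 32.9) in FI3KO and from 15.1 to 29.2 (median 19.6) in WT (0.95, adjusted p 0.0117), with its highest value in FI3KO replicate 1. mt-Nd4 (0.54, adjusted p 0.0205) and mt-Nd3 (0.65, adjusted p 0.0481) were the others called higher. mt-Co1 ranged from 63.8 to 102 CPM (median 76.9) against 92.3 to 121 (median 95.5; -0.33, adjusted p 0.0376), and mt-Nd1 from 10.7 to 12.1 (median 11.1) against 11.6 to 14.5 (median 14.0; -0.28, adjusted p 0.00793). Of the 13 differences 8 were above 0 and 5 below, whereas all 13 were below 0 in FI3OE. The TRAP tally turned to 5 above and 8 below without FI3KO replicate 1, and the median from 0.082 to -0.0209. With FI3KO replicates 3 to 6 against all WT it was also 5 and 8. Replicates 3 to 6 of both groups gave 6 and 7, and replicates 1 and 2 alone 10 and 3. The call of mt-Co1 was lost without FI3KO replicate 1, 3 or 4 or WT replicate 3, 5 or 6, and that of mt-Nd3 in 18 of 27 alternatives. With replicates 1 and 2 alone none of the 13 was called.

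**Figure D5:**
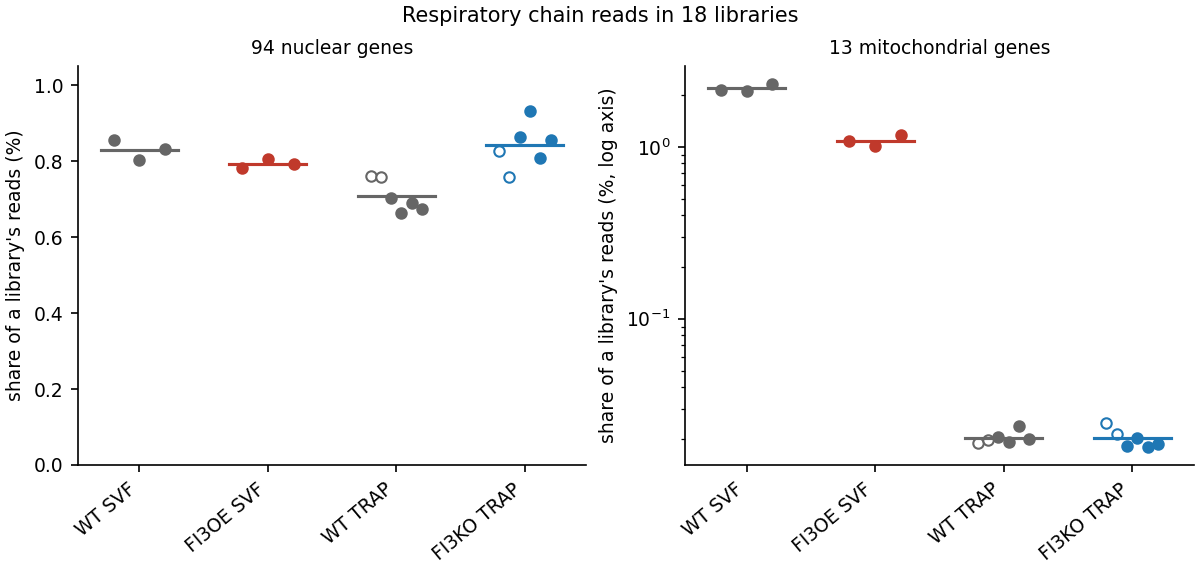
Percent of each library's reads in the 94 nuclear genes (linear axis) and in the 13 mitochondrial genes (log axis), by group, with open points for TRAP replicates 1 and 2. FI3OE lies below WT in the mitochondrial share, and the nuclear share is higher in FI3KO than in WT apart from FI3KO replicate 2, which lies level with WT replicates 1 and 2.

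Markers of other cells also differed between the TRAP groups. All marker counts here stand against 19.1% of all genes called higher and 18.3% called lower. With FI3KO replicates 1 and 2 left out, 19.8% of all genes were called higher and 2927 of 13923 lower. With replicates 3 to 6 of both groups, the shares were 25.7% and 24.8%. Macrophage markers summed to 18.5 to 55.1 CPM in FI3KO and 50.0 to 120 in WT, with 12 of 15 called lower and 1 higher (16 of 17 and 1 with FI3KO replicates 1 and 2 left out), and fibroblast markers to 565 to 1106 and 1020 to 2262 CPM, with 4 of 9 called lower and 1 higher (7 and 1 with FI3KO replicates 1 and 2 left out). Muscle markers summed to 38.5 to 57.7 and 53.2 to 116 CPM, mesothelial markers to 4.49 to 22.7 and 5.43 to 41.2 CPM, and endothelial markers to 31.3 to 131 and 30.1 to 55.1 CPM. Adipocyte markers, at 61398 to 71936 and 58462 to 72917 CPM, were far above all of these in level, with 8 of 18 called higher and 2 lower. Their median difference was 0.28, that of the nuclear respiratory chain genes also being 0.28. With FI3KO replicates 1 and 2 left out it was 0.33 (8 higher, 2 lower), and with replicates 3 to 6 of both groups 0.48 (12 higher, 2 lower). RNA of nucleus-retained genes summed to 597 to 3863 CPM in FI3KO and 503 to 3090 in WT, with a median difference of -0.18 over 8 genes and of -0.91 with FI3KO replicates 1 and 2 left out. Epididymal and germ cell markers summed to at most 1.68 CPM, and 5 of 12 were at 0 in every TRAP library. The part of these shifts in the nuclear rise was not tested.
For the other lists, 19.1% of all genes called higher and 18.3% called lower are the background. Of 45 further assembly and carrier genes, 15 were called higher in FI3KO (33.3%) and 4 lower (8.9%), among them the copper chaperone Cox17 (0.87) and the complex III assembly factor Uqcc3 (0.85). Of 29 mitochondrial DNA expression genes, 5 were called higher (17.2%) and 1 lower, with Mterf1a at 0.64 and Polg2 at 0.62, and of 12 biogenesis regulators 2 higher (16.7%) and 1 lower (the transcription factor Nrf1 0.32, the corepressor Nrip1 0.25). Of 13 citric acid cycle genes, 3 were called higher (23.1%), among them citrate synthase Cs (0.20), and the other 10 were not called. With replicates 3 to 6 alone, the counts higher and lower were 16 and 6, 8 and 4, 5 and 2 (of 13 tested), and 8 and 1, where 25.7% and 24.8% of all genes were called.

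Set side by side, 16 of the 87 nuclear members tested in both experiments, which share no libraries, were called in both (18.4%), against 2227 of 13093 genes. Of these, 9 were lower in FI3OE and higher in FI3KO, among them Ndufs1, Ndufv1, Ndufa10, Ndufc1, Sdha, Uqcr11, Uqcrq and Cox4i1. For example, Sdha had -0.26 and 0.46, and Uqcr11 had -0.35 and 0.43. The other 7 were higher in both, namely Ndufa13, Ndufc2, Ndufs5, Ndufaf3, Sdhc, Sdhd and Ndufa4. The 9 are 10.3% of the members, against 4.19% of all genes with these directions, and the 7 are 8.05%, against 3.44%. Both need a call higher in FI3KO, which 64.4% of members had, against 19.1% of all genes, so these shares are not a separate result. No test of the overlap was made. With TRAP replicates 3 to 6 alone there were 11 (12.6%, against 5.88% of all genes) and 7 (8.05%, against 4.63%). The members called in both were then 18 (20.7%, against 22.8% of all genes). In the fit of all 18 libraries 2 members were called in both, Ndufaf3 higher in both and Cox6a2 lower in both (-2.41 and -2.81), none had these opposite directions, and all 9 lost their call in FI3OE. The 9 include Ndufv1, Ndufs1 and Sdha, through which electrons enter complexes I and II, and the 7 include both membrane anchors of complex II.

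The stretch from 250 bases before to 50 bases after the start site was searched for recognition sequences in the 74 nuclear members with a RefSeq entry, on both strands. The NRF1 letters GCGCATGCG were found in 10 members (13.5%), against 1.95% of 27025 genes, and the GABPA letters CCGGAAG in 18 (24.3%), against 9.93%. The YY1 letters AAGATGGC were found in 10 (13.5%), against 3.19%, and the ESRRA letters AAGGTCA in 8 (10.8%), against 5.38%. At least 1 of the 4 occurred in 36 members (48.6%), against 18.9% of genes. An interferon regulatory factor sequence, GAAANNGAA, was found in 7 members (9.46%), against 9.76% of genes. In TRAP, 14 of 18 members with the GABPA letters and 30 of 54 without were called higher in FI3KO, with medians of 0.33 and 0.24. The counts were 8 of 10 and 36 of 62 for YY1, 5 of 10 and 39 of 62 for NRF1, 4 of 8 and 40 of 64 for ESRRA, and 5 of 7 and 39 of 65 for the interferon regulatory factor letters. With replicates 3 to 6 of both groups, where 25.7% of all genes and 65 of 87 nuclear members were called higher, the counts with the letters were 15 of 18 for GABPA, 9 of 10 for YY1, 6 of 10 for NRF1, 4 of 8 for ESRRA and 6 of 7 for the interferon regulatory factor. In FI3OE, where 20.2% of all genes were called higher and 16.8% lower, the members called higher and lower were 2 and 1 of 18 with the GABPA letters and 11 and 8 of 55 without. They were 1 and 1 of 10 with YY1 (12 and 8 of 63 without), 2 and 2 of 10 with NRF1 (11 and 7 of 63 without), 3 and 0 of 8 with ESRRA (10 and 9 of 65 without), and 0 and 1 of 7 with the interferon regulatory factor letters (13 and 8 of 66 without). In the upstream sequences shown above, Uqcrh and Ndufaf8 have GABPA letters starting 10 and 8 bases before the start site. Letters of this kind are matches only, and no difference between members with and without them was tested.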

How the data were processed

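RNA-seq of SVF-derived adipocytes (3 FI3OE and 3 WT libraries) and of TRAP RNA from eWAT (6 FI3KO and 6 WT libraries) was analysed, grouped by GEO's labels. The authors depleted rRNA, made unstranded libraries with the Nextera XT kit, trimmed reads with fastp and quantified transcripts with Salmon 1.4.0 on GRCm38 transcripts. The deposited files hold estimated counts and TPM per transcript. Estimated counts were summed per gene with GENCODE M21 (117850 of 118733 transcripts matched, the rest holding 0.375% to 1.08% of reads) and rounded. The 883 unmatched transcripts were each kept as an entry of their own. Those that passed the filter on low counts are among all genes tested. TPM, summed likewise, served only for levels between genes.

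Each experiment was tested alone in edgeR 4.0.16 (R 4.3.3; filterByExpr, TMM, quasi-likelihood test, Benjamini-Hochberg over all genes tested). A gene was called at an adjusted p of at most 0.05, and past both cutoffs if the absolute log2 difference was also at least 1. Printed differences are log2 of FI3OE or FI3KO over WT, and CPM uses TMM library sizes. A non-overlap means that every library of a group lay beyond all of the other.

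The members and gene lists were chosen with earlier results of these data known. Genes named with values are the 13 mitochondrial genes, representatives of each complex, complex IV paralogues, the 5 largest rises and falls among called nuclear members whose mean log2 CPM was not under 1, and 2 genes per other list. Some genes that this rule would name are not reported here. Ndufs7, Sdhc, Sdhd, Tfam, Higd1a, Uqcr11 in TRAP, and genes listed by name in a count, were added after their values were seen.

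Alternatives were DESeq2 1.42.0 (size factors or Wald test), other count filters, a transcript length offset, a fit of all 18 libraries, library sizes from nuclear genes, removal of rRNA-like genes, a replicate block, each library left out, and for TRAP replicates 1 and 2 or 3 to 6 alone or as a term. A GC and length trend, WT TRAP replicates 1 and 2 counted as 1, and FI3KO replicates 3 to 6 against all WT were added after seeing the data. In data simulated for the SVF comparison (16105 genes), 67, 67 and 66 genes above a minimum mean CPM were changed by 0.3, 0.6 and 1 (log2). Of these, 58.2%, 94.0% and 98.5% were recovered, with 16 false calls. For the TRAP comparison (13624 genes), with as many changed, the shares were 9.0%, 85.1% and 92.4%, with 1 false call. Far more genes were called in the TRAP data (2605 higher and 2490 lower). The adjusted p is stricter where few genes change, so these shares do not give the recovery in the data.

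Of the nuclear members, 61 of 94 share no 31-base word with another quantified gene, and 4 share over 10% of their words, so that their counts are uncertain (Ndufb9, Cox5b and both Atp5o models). Without these 4, TRAP had 55 called higher of 84, and the SVF counts were 14 and 15. Promoters of 74 members came from RefSeq.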

Additional observations from a re-analysis of the deposited data

Results flagged for a closer look

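In 6 results a single library stood far from the rest of its group of 6 TRAP libraries by Dixon's test at the 95% level. With 82 groups tested, chance would give 4.1, so the number found is close to that. FI3KO replicate 1 was highest for mt-Nd6, at 5.96 CPM where the others ranged from 1.22 to 2.81, and lowest for Cox7b, at 34.0 CPM (others 45.1 to 50.05), and for Atp5g1, at 19.97 CPM (others 26.5 to 29.3). WT replicate 5 was highest for mt-Nd3, at 3.60 CPM (others 1.76 to 2.31), for mt-Co1, at 121 CPM (others 92.3 to 103), and for the mitochondrial share of reads, at 0.0237% (others 0.0190% to 0.0206%). None of the 6 lay in the nuclear genes called higher in FI3KO. Groups of 3 SVF libraries were not tested in this way.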

How the results depend on the processing

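In SVF adipocytes the mitochondrial genes kept their direction under every alternative run, and 13 were called lower with each library left out. With the fold cutoff added 5 were called (9 with the GC and length trend also removed), and in the fit of all 18 libraries 10. For nuclear genes called higher (14, or 15.4%, against 20.2% of all genes), the count was 6 with the length offset (6.6%, against 13.7%). It was 4 in the fit of all 18 libraries (4.4%, against 5.5%) and 9 with the GC and length trend removed (9.9%, against 19.2%). With a library left out it was 8 to 13 (8.8% to 14.3%, against 16.7% to 17.8%), and with the fold cutoff 1 (against 1.99%). For those called lower (15, or 16.5%, against 16.8% of all genes) it was 10 with the length offset, where 9.9% of all genes were. It was 3 in the fit of all 18 libraries (3.3%, against 3.6%) and 3 with the fold cutoff (against 1.63%). With the GC and length trend removed it was 27 (29.7%, against 3159 of 15806 genes). With a library left out it was 11 to 17 (12.1% to 18.7%, against 13.3% to 14.6%). The cause of these shifts was not tested.

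In TRAP the 56 nuclear genes called higher became 42 to 58 with a library left out (48.3% to 66.7%, against 13.7% to 19.4% of all genes). The count was 0 with replicates 1 and 2 only (against 1.6% of all genes) and 0 with the fold cutoff (against 1.74%). It stayed at 56 with FI3KO replicates 1 and 2 left out (64.4%, against 19.8%). From 0 called lower, the count was 1 without a filter and in the fit of all 18 libraries (both Cox6a2), and 1 with the GC and length trend removed. Mitochondrial calls were 2 to 4 higher (3 with all) and 1 to 2 lower (2 with all) with a library left out. They were 0 and 0 with replicates 1 and 2 only and with the fold cutoff, and 1 lower without a filter, 0 with the length offset and 1 with the GC and length trend removed. The cause was not tested.

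The replicate numbers did not pair the libraries, with same-number correlations of -0.046 to 0.015 in SVF and -0.293 to 0.104 in TRAP. With a replicate block, nuclear calls in SVF were 13 higher and 13 lower (14.3% each), against 3088 and 2570 of 16105 genes. In TRAP 42 were called higher (48.3%, against 1766 of 13624 genes). Mitochondrial calls were 13 lower in SVF and 2 each way in TRAP.

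Among the named genes, these differences changed sign. In SVF adipocytes they were Uqcrfs1 (-0.0262 with the GC and length trend removed), Cox6a1 (0.0093 without a filter, -0.0504 to 0.0391 with a library left out), Cox6b1 (-0.0293 with that trend removed, -0.0202 to 0.0775 with a library left out), Cox8a (-0.0539 to 0.0061), Atp5g1 (-0.0094 to 0.1188) and Ndufa4l2 (-0.0255 with the length offset, -0.0087 with the replicate block, -0.0339 with that trend removed, -0.1765 to 0.1988). In TRAP with a library left out they were mt-Nd2 (-0.0209 to 0.1309), mt-Nd4l (-0.0288 to 0.2062, and -0.004 with that trend removed), mt-Cytb (-0.0107 to 0.1628), mt-Co2 (-0.091 to 0.0229), mt-Co3 (-0.1 to 0.0017) and Cox7a1 (-0.1902 to 0.1131). The length offset gave 0.0334 for mt-Co2 and 0.0474 for mt-Co3. Replicates 3 to 6 only gave -0.0236 for mt-Nd2, -0.0195 for mt-Cytb and -0.049 for Cox7a1. FI3KO replicates 3 to 6 against all WT gave -0.0075 for mt-Nd2, -0.0377 for mt-Nd4l, -0.0898 for mt-Cytb and -0.1417 for Cox7a1. Replicates 1 and 2 only gave 0.2642 for mt-Co2, 0.1163 for mt-Co3, -0.0782 for Sdhb, -0.0633 for Uqcrc1, -0.0854 for Cox5b, -0.0815 for Cox7a2, -0.2588 for Cox7b, 0.1142 for Cox8b and -0.043 for Atp5b. Cox7a1 in TRAP, at 0.0057, was -0.0017 with DESeq2 size factors, -0.0074 with the DESeq2 Wald test, -0.0148 with a minimum of 10 counts, -0.015 with the length offset, -0.0105 in the fit of all 18 libraries, -0.0243 with the replicate block and -0.0754 with the GC and length trend removed. Sdhb and Atp5b are the genes among these that were called with all libraries.

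Cox6a2 rests on 2 to 12 reads a library in FI3OE, and mt-Atp8 on at most 28.7 reads in TRAP, and a few reads more or less would move their values. The genes changed in the simulation were drawn only from those above a minimum mean CPM. Its shares therefore do not cover genes as low as these, and depth was not varied.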
